A study of Mus musculus with 20 samples.

Results

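The genes of the proteasome and of its immune form were followed across sorted populations of mouse blood-forming and blood cells. Members were all genes whose platform symbol begins with Psm, followed by a letter from a to g and a number, read through probe sets with that symbol alone, the brightest probe set per gene being kept. The rule found 49 genes of 18193 on the array, and 48 of them were among the 14044 genes bright enough to be tested. Psmb11, the catalytic subunit of the thymus proteasome, was the member left untested, with intensities from 1.31 to 7.88 over the 20 arrays. Psmc3ip and Psme3ip1 match the rule by name only: Psmc3ip encodes a partner protein of meiotic recombination, and Psme3ip1 a protein that binds an activator of the proteasome. Psme2 was read by 1 probe set that it shares with Psme2b, and was left out.

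The proteasome is the barrel-shaped protease that degrades ubiquitin-tagged proteins in the nucleus and cytoplasm. Its 20S core has outer rings of alpha subunits and inner rings of beta subunits, of which Psmb6 (beta1), Psmb7 (beta2) and Psmb5 (beta5) carry the active sites. Interferon gamma, and many cells of the immune system without it, bring in the immune forms Psmb9 (beta1i), Psmb10 (beta2i) and Psmb8 (beta5i), which replace them during assembly and alter the peptides made for MHC class I molecules. A 19S cap recognises, unfolds and feeds substrates, PA28 and PA200 are other caps, and dedicated chaperones put core and cap together.

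All cells were C57BL/6 cells purified by sorting, with 2 biological replicates and so 2 arrays per population. KSL is the usual name of a fraction rich in blood stem and progenitor cells, and LinNeg is the fraction negative for lineage markers. The mature populations were Ter119-positive erythroblasts (Erythroblast), B220-positive B cells (B), NK1.1-positive NK cells (NK), cells positive for CD3ε and NK1.1 (NKT), CD4-positive and CD8-positive T cells (CD4T, CD8T), Gr-1-positive neutrophils (Neutrophil) and Mac-1-positive monocytes/macrophages (Monocyte). The labels name no tissue of origin, no animals and no gates beyond these markers, and nothing beyond the word biological says how the replicates were separated, so p-values measure the spread between these arrays. Values are probe set intensities from Mouse Genome 430 2.0 arrays, each scaled to the same trimmed mean. An intensity is read between populations for 1 probe set, never between genes, since probe sets differ in brightness for reasons other than RNA.

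Array medians ran from 20.3 to 26.8, and replicate arrays correlated with each other at 0.953 to 0.972 across genes. The 3′ to 5′ ratio ran from 2.36 to 6.10 for the Gapdh control probe sets. The sort labels were read against lineage markers, summed over each list. The erythroid sum (4 of 6 markers found) was 24164 to 31530 in Erythroblast, and the B cell sum (4 of 5) was 16073 to 18847 in B. The NK arrays also held the highest sum of monocyte or macrophage markers (7 of 8 found), 10306 to 11756, against 5314 to 7730 in Monocyte. Their neutrophil markers (5 of 6 found) summed to 5428 to 6684, against at most 79.5 in B, CD4T and CD8T and 77.9 to 758 in NKT. The monocyte or macrophage markers summed to 475 to 2019 in NKT. The NK markers (5 of 6 found) summed to 6592 to 7323 in NK, 8089 to 8551 in NKT, 5180 to 5527 in CD8T and 1497 to 1664 in CD4T. Monocyte arrays held neutrophil markers at 38033 to 46276, against 48724 to 59478 in Neutrophil.

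Promoter sequence is shown for a pair of immune subunits that stand close together in the genome (Psmb8 and Psmb9), for the constitutive subunits that they replace (Psmb5 and Psmb6), and for Psmf1, which of the 48 tested members had the largest rise in Erythroblast. Each line holds the 250 bases upstream of the RefSeq start on GRCm38.p6, read 5′ to 3′ along the gene. Psmb8 lies at chr17:34197945-34198194 on the plus strand, Psmb9 at chr17:34187331-34187580 on the minus strand, Psmb5 at chr14:54617996-54618245 on the minus strand, Psmb6 at chr11:70525107-70525356 on the plus strand and Psmf1 at chr2:151741311-151741560 on the minus strand. Capitals mark matches on either strand to TTCNNNGAA (the letters bound by STAT factors, GAS), TGACNNNGC (bound by NRF factors), CCAAT (read ATTGG on the other strand, bound by NF-Y), AGATAA (bound by GATA factors) or GAAA, any 2 bases and GAAA again (bound by interferon regulatory factors).
Psmb8: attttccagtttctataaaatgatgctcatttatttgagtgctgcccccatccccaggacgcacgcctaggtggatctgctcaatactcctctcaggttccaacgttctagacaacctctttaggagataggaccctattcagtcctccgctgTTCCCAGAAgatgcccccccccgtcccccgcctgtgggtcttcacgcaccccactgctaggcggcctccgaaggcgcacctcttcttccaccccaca
Psmb9: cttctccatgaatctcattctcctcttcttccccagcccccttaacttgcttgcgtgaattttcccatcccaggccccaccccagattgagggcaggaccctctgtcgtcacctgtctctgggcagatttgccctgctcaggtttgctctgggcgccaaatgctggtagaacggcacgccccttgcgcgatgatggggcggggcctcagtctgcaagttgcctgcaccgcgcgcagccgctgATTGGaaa
Psmb5: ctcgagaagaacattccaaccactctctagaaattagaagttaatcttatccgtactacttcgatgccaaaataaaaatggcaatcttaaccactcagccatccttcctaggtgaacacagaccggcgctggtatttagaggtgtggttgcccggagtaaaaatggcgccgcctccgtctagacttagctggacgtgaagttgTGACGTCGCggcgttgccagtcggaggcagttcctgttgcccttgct
Psmb6: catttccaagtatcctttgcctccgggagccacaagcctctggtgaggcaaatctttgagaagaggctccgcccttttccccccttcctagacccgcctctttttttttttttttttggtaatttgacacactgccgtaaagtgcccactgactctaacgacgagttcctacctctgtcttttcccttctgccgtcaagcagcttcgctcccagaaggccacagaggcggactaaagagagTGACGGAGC
Psmf1: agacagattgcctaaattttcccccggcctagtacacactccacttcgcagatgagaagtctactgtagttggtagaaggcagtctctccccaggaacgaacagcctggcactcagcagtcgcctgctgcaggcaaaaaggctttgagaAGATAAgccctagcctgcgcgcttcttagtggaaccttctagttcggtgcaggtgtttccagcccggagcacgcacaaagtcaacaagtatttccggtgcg

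Windows were found for 41 of the 49 members, 44 windows in all since some genes have more than 1, and motifs were counted in the 250 bases upstream. TTCNNNGAA was in 7.02% of all 32851 windows and in 2 member genes, Psmb8, at 97 to 89 bases before the start, and Psmg1. TGACNNNGC was in 10.2% of all windows and in 5 members, Psmb5, Psmb6, Psmc6, Psmd12 and Psmd9. AGATAA was in 9.99% of all windows and in 2 members, Psmf1 and Psmd9. The GAAA repeat was in 2.98% of all windows and in 3 members, Psmb3, Psmd4 and Psmd9, none of them an immune subunit. CCAAT was in 33.8% of all windows and in 16 members, Psmb9 among them, and CCNCNCCC, the letters of KLF factors, was searched as well and left in lower case; it was in 45.9% of all windows and in 19 members. Matches to different motifs overlapped once among the members, in Psmd9 (TGACNNNGC and CCNCNCCC), and a match describes letters, not binding. Psmb9 and Psmb8 stand on chromosome 17 in the order H2-DMb1, Psmb9, Tap1, Psmb8, Tap2 and H2-Ob, and Psmb9 and the peptide transporter gene Tap1 start 226 bases apart in opposite directions, so their windows of 300 bases in RefSeq overlap by 275 bases.

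Nearly every proteasome gene differed among the populations, mostly by modest amounts. In a limma F test over the 10 populations, fitted on log2(intensity + 6.75) with p-values adjusted over all genes tested, 45 of 48 members passed an adjusted p under 0.05, against 76.5% of all genes. The 3 that did not were Psmb5 (adjusted p 0.077), the cap chaperone Psmd10 (0.19) and the cap ATPase Psmc4 (0.29). The span between the lowest and highest population mean had a median of 1.55 on the log2 scale over the 48 members, against 2.13 over all genes tested, and of 1.45 without Psmb8, Psmb9 and Psmb10. Of the members, 20 had their lowest mean in Neutrophil, where 20.4% of all genes did, and 10 had it in Erythroblast, where 26.9% of all genes did. LinNeg held the highest mean of 19 members, against 10.5% of all genes, and Erythroblast that of 18, against 24.7% of all genes.

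**Figure D1:**
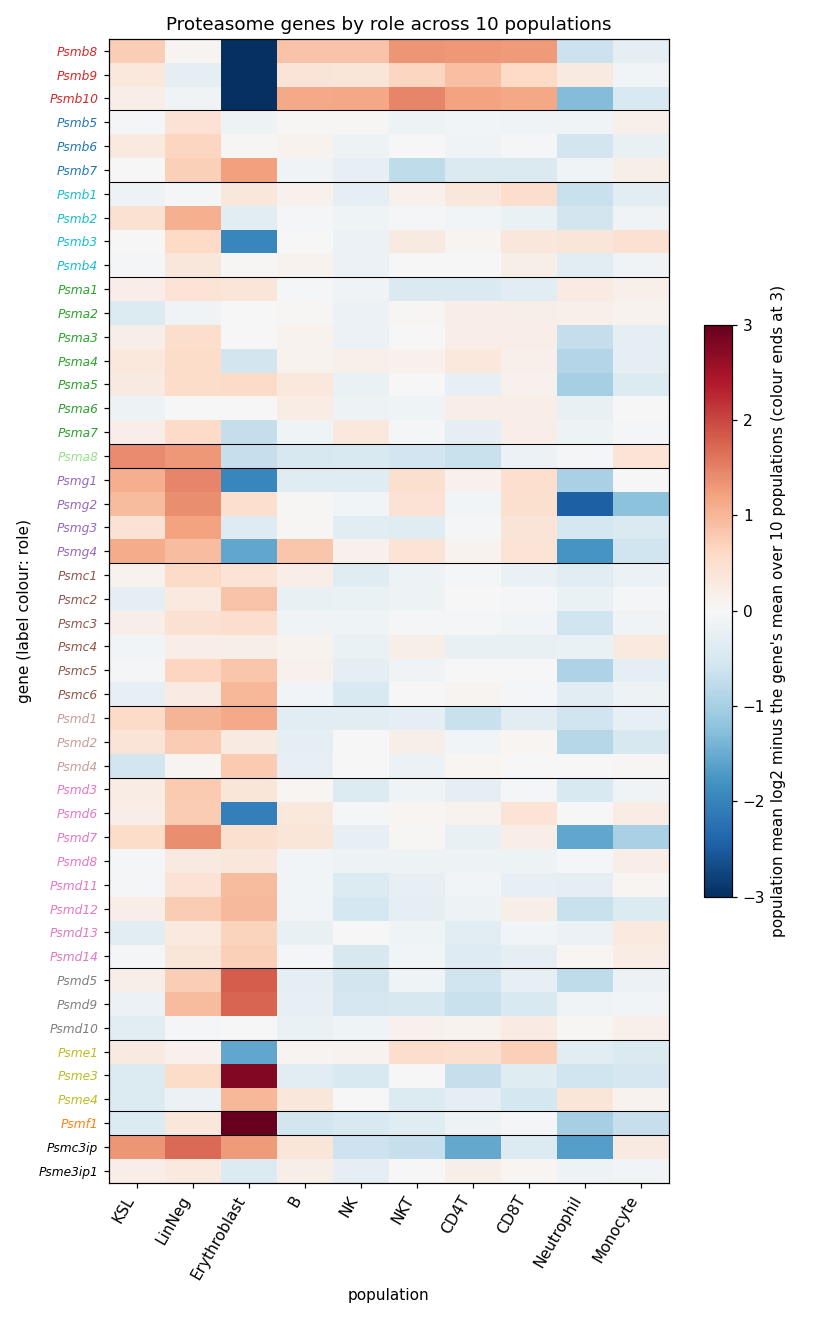
Population mean of each tested gene on the log2(intensity + pseudocount) scale, minus the gene's mean over the 10 populations (columns), with genes in rows grouped and coloured by role and the colour scale ending at 3. The 3 immune subunits are dark blue in Erythroblast, and Psme3 and Psmf1 are dark red there.

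The immune catalytic subunits were lowest in Erythroblast, where Psmb8 and Psmb10 were near the floor of the arrays and Psmb9 was not, and highest in lymphocytes. Psmb8 had 10.8 and 3.60 in Erythroblast, against 1079.9 and 984 in KSL and 701 and 608 in LinNeg. Among lymphocytes B had 1194 and 1051, NK had 1201 and 1057, NKT had 1719 and 1378, CD4T had 1725 and 1367, and CD8T had 1421 and 1566. Neutrophil had 445 and 345, and Monocyte 456 and 565. All 10 lymphocyte arrays lay above all 4 Neutrophil and Monocyte arrays, and these above both Erythroblast arrays. The KSL arrays overlapped those of B (KSL minus B -0.12 on the log2 scale, limma adjusted p 0.74).

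Psmb10 followed the same order of groups. Erythroblast had 11.2 and 26.1, Neutrophil had 232 and 189 and Monocyte had 299.7 and 479, against 643 and 565 in KSL and 548 and 424 in LinNeg. Lymphocytes had 1274 and 1046 (B), 1291 and 1093 (NK), 1639 and 1277 (NKT), 1439.7 and 1020.3 (CD4T), and 1198 and 1167 (CD8T). Here too no lymphocyte array overlapped the Neutrophil and Monocyte arrays, and the lymphocyte arrays also lay above both KSL arrays.

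Psmb9 kept a high intensity in Neutrophil. Lymphocytes had 1076 and 942 (B), 1119 and 902 (NK), 1331 and 1106 (NKT), 1487 and 1433 (CD4T), and 1032 and 1358 (CD8T), against 921 and 957 in Neutrophil and 724 and 750.0 in Monocyte. KSL had 947 and 984, LinNeg 730.2 and 549, and Erythroblast 82.8 and 81.6. The Neutrophil and KSL arrays lay inside the range of the B and NK arrays, and the Erythroblast arrays far below every other. Between B and Neutrophil the limma difference was 0.10 ± 0.17 (SE, log2, adjusted p 0.68) for Psmb9, against 1.499 ± 0.22 (adjusted p 1e-05) for Psmb8 and 2.42 ± 0.26 (adjusted p 2.9e-07) for Psmb10. Whether the 3 genes differ in this difference was not tested.

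The constitutive catalytic subunits varied less. Psmb5 ran from 812 in an NKT array to 1492 in a LinNeg array, with 924 and 991 in Erythroblast. Psmb6 had its highest values in LinNeg, 1509.5 and 1155, and its lowest in Neutrophil, 553 and 585. Psmb7 stood out in Erythroblast, at 989 and 1214, then in LinNeg, at 799.6 and 731, and ran from 266 to 530.2 in the 7 other mature populations. For Psmb7 the Erythroblast and LinNeg arrays overlapped neither each other nor any other array (Erythroblast minus LinNeg 0.51, adjusted p 0.0062), and NKT had the lowest values, 266 and 273.

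**Figure D2:**
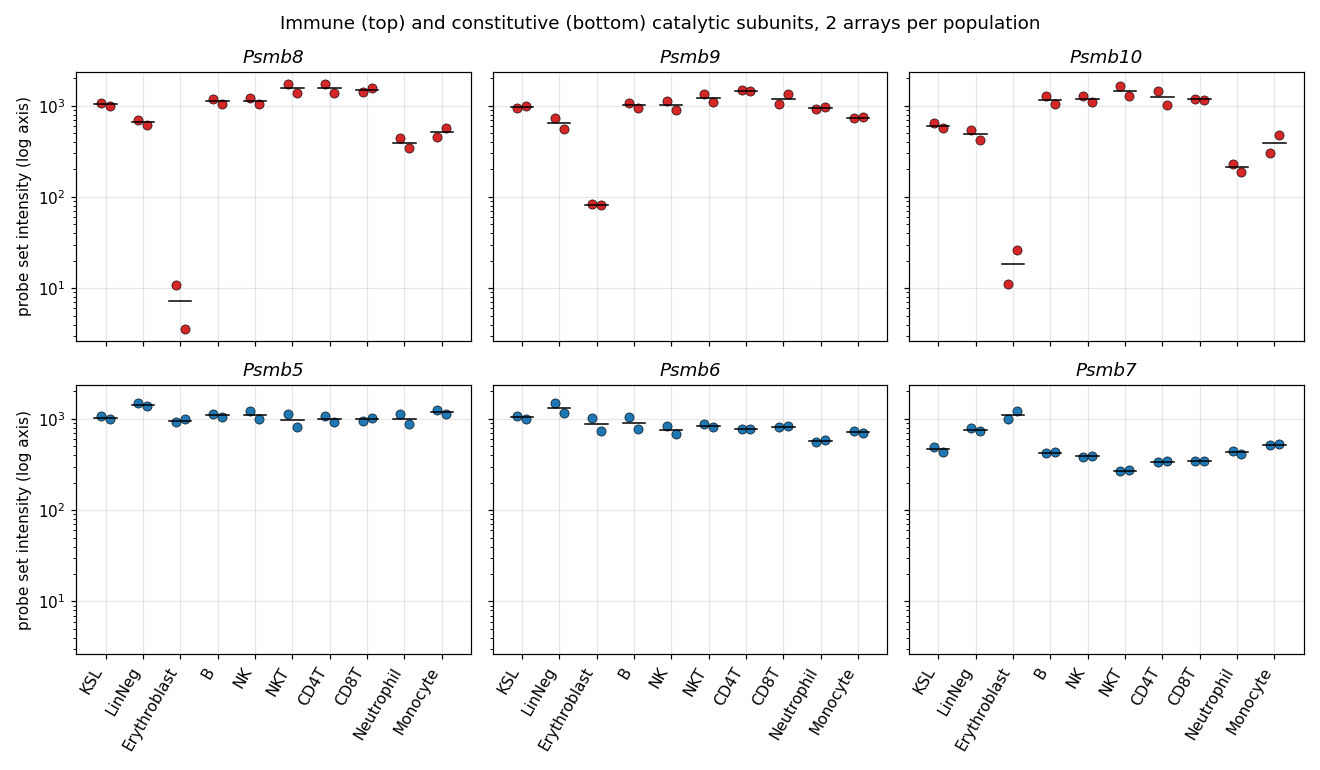
Intensity (log axis) of the 3 immune and 3 constitutive catalytic subunits in the 10 populations, with 1 point per array and a bar at the mean of 2 arrays. Psmb8, Psmb9 and Psmb10 drop in Erythroblast to means of 7.19, 82.2 and 18.7, where Psmb5 and Psmb6 stay at 958 and 874 and Psmb7 reaches 1101.

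The number of population pairs that differed was highest for Psmb10 and Psmb8 and did not separate the other immune subunit from Psmb7. A pair was called at an adjusted p under 0.05 with a log2 difference of at least 1, out of 45 pairs, and 26.8% of all genes were called per pair on average, from 3.03% (CD8T and NKT) to 47.6% (KSL and Erythroblast). Psmb10 was called in 28 pairs (62.2%), Psmb8 in 24 (53.3%), Psmb7 in 11 (24.4%), Psmb9 in 10 (22.2%), Psmb6 in 1 (LinNeg and Neutrophil, 1.21) and Psmb5 in 0, with 5 pairs of Psmb5 passing the adjusted p alone. The median over the 48 members was 6 pairs, and over all genes tested 10. The order of means for Psmb8 was NKT, CD4T, CD8T, NK, B, KSL, LinNeg, Monocyte, Neutrophil and Erythroblast, with no neighbouring pair passing down to Neutrophil (smallest adjusted p 0.073, KSL and LinNeg), and a difference of 4.89 between Neutrophil and Erythroblast. Psmb10 had neighbours that passed the adjusted p between B and KSL (0.93, adjusted p 0.011), Monocyte and Neutrophil (0.83, adjusted p 0.033) and Neutrophil and Erythroblast (3.16, adjusted p 3.9e-09), and Psmb9 only between LinNeg and Erythroblast (2.85, adjusted p 6.5e-11).

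The change in balance between immune and constitutive subunits was followed as the mean log2 of Psmb8, Psmb9 and Psmb10 minus that of Psmb5, Psmb6 and Psmb7, centred on the 10 populations. It is a description with no test, and only its change between populations has a meaning. It was 0.33 ± 0.04 in KSL, -0.70 ± 0.08 in LinNeg and -4.74 ± 0.04 in Erythroblast (SD, n = 2 arrays each). It was 0.78 ± 0.04 in B, 0.92 ± 0.04 in NK, 1.44 ± 0.10 in NKT, 1.35 ± 0.16 in CD4T and 1.201 ± 0.08 in CD8T. Neutrophil had -0.29 ± 0.05 and Monocyte -0.30 ± 0.28, the widest spread, with -0.50 and -0.10 in its 2 arrays. The arrays therefore fell into Erythroblast, then LinNeg, Neutrophil and Monocyte, which overlapped only between Neutrophil and Monocyte, then KSL, and then the lymphocytes. By pair, the Erythroblast value was -5.38 for Psmb8 minus Psmb5, -3.17 for Psmb9 minus Psmb6 and -5.68 for Psmb10 minus Psmb7, each centred the same way.

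**Figure D3:**
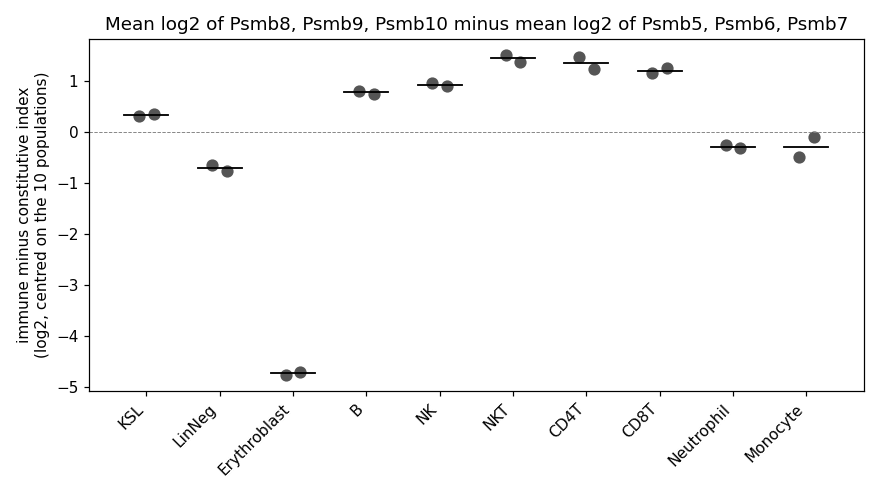
Mean log2 of Psmb8, Psmb9 and Psmb10 minus mean log2 of Psmb5, Psmb6 and Psmb7, centred on the 10 populations, with 1 point per array and a bar at the mean of 2 arrays. Erythroblast lies at -4.74, and the 5 lymphocyte populations lie between 0.78 and 1.44.

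Across the 10 population means the immune subunits went together, with Pearson r of 0.97 between Psmb8 and Psmb9, 0.98 between Psmb8 and Psmb10 and 0.92 between Psmb9 and Psmb10. Psmb7 ran against them, at -0.84 with Psmb8, -0.88 with Psmb9 and -0.84 with Psmb10, and Psmb5 and Psmb6 lay between -0.15 and 0.15 with all 3. These values are descriptions over 10 points and were not computed without Erythroblast. That population had the lowest mean of each immune subunit and the highest of Psmb7, and its weight in them was not tested. The genes outside the rule whose 10 population means were most like the mean of the immune subunits were Rrnad1 (r = 0.99), Fbxo22, Etv3, Zfp263 and Sptan1 (0.99 each). For the constitutive subunits they were Ephx2 (0.96), Lsm2, Nup155 and Eif1ax (0.93 each) and Tarsl2 (0.92).

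Erythroblast was set against the 7 other mature populations, each given equal weight. Proteasome genes moved there in opposite directions by role: the immune subunits fell, most cap subunits rose, and the core subunits were split. At an adjusted p under 0.05 and a log2 difference of at least 1, 12 of 48 members were higher, against 17.5% of all genes, and 8 were lower, against 28.4% of all genes. The median difference was 0.45 over the members and -0.13 over all genes tested. By the adjusted p alone 26 members were higher, against 25.6% of all genes, and 11 lower, against 36.8% of all genes. The p-values rest on the spread between replicate arrays; the spread among the populations of a side does not enter them, here or in the other comparisons. In RNA from sorted pools, fewer cells that express a gene and less RNA per cell cannot be told apart.

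The immune subunits had the largest falls of any member. The log2 differences were -6.20 ± 0.16 for Psmb8 (SE, limma adjusted p 1.3e-16), -5.07 ± 0.20 for Psmb10 (adjusted p 4.2e-14) and -3.58 ± 0.13 for Psmb9 (adjusted p 1.1e-14). The Erythroblast means of Psmb8 and Psmb10 lay under the minimum of 4.89 (log2) that a gene had to pass in at least 1 population, so that the sizes depend on the pseudocount. With a smaller and a larger one Psmb8 gave -7.01 and -5.08 and Psmb10 gave -5.46 and -4.36, and Psmb9, which lay above the minimum, gave -3.66 and -3.36. A second probe set of Psmb8 gave -3.50. The constitutive Psmb5 and Psmb6 did not pass (-0.12 ± 0.13, adjusted p 0.42, and 0.18 ± 0.13, adjusted p 0.27), and Psmb7 rose by 1.504 ± 0.11 (adjusted p 4.8e-10).

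In the rest of the core, no alpha ring subunit was called: Psma5 (0.79) and Psma1 (0.50) passed the adjusted p as higher and Psma7 (-0.69) and Psma4 (-0.52) as lower, and the other 3 of 7 did not pass. Among the 4 beta subunits without an active site, Psmb3 had 307 and 445 in Erythroblast, against 1249 to 2148 (median 1703) in the other mature populations. It fell by 2.16 (SE 0.12, adjusted p 1.1e-11), with no overlap, while its other probe set gave -0.63. Psmb1 was higher by 0.37 (adjusted p 0.0039). Of the 14 constitutive core subunits together, 7 differences were above 0 and 7 below, with a median of 0.04; under quantile normalization, which raised the median of all genes by 0.16, 5 were above 0 and the median was -0.27.

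The cap moved more evenly. Of 17 subunits of the 19S base and lid, 16 had a difference above 0, against 46% of all genes, with a median of 0.82. By the adjusted p alone 15 were higher, against 25.6% of all genes, and 5 were called higher, against 17.5% of all genes. Called higher were Psmd1, a scaffold of the base, at 932 and 1072 against 273 to 435 (median 331) in the other mature populations (1.54 ± 0.14, adjusted p 6e-09), the ATPases Psmc6 (1.13) and Psmc5 (1.05), and the lid subunits Psmd12 (1.25) and Psmd11 (1.14). For Psmd1 the groups did not overlap. Other probe sets gave 0.26 and 1.28 for Psmc6, and 0.13, 0.40, 0.68 and 1.63 for Psmd11. Psmd4, a receptor for ubiquitin chains, and Psmd14, the enzyme that cuts ubiquitin off substrates, rose by 0.84 and 0.85 (adjusted p 1.1e-05 and 1.5e-06). Under quantile normalization 13 of the 17 passed as higher, 2 were called higher, and the median was 0.52, against 0.03 over all genes. Psmc6 (0.82), Psmd12 (0.98) and Psmd11 (0.80) were then no longer called. The exception was the lid subunit Psmd6, at 151 and 186 against 644 to 1044, a fall of 2.20 (adjusted p 1.2e-11), whose other probe set gave 0.31.

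The cap chaperones Psmd5 and Psmd9, which help to assemble the base, were higher in Erythroblast, and Psmd10 was not. Psmd5 had 1398 and 1386, against 225 to 386 (median 303) in the other mature populations, with no overlap (2.20 ± 0.13, adjusted p 2.1e-11). Psmd9 had 383 and 569, against 69.7 to 179.7 (median 98.8), also with no overlap (2.10 ± 0.24, adjusted p 2.6e-07), but its other probe sets gave -0.20 and 0.11. The chaperones of the core went the other way for a pair of genes: Psmg1 fell to 52.1 and 72.3, against 111 to 399.9 (median 259), by 1.87 (SE 0.17, adjusted p 6.2e-09), and Psmg4 to 27.2 and 31.6, against 20.4 to 258 (median 114), by 1.49 (SE 0.23, adjusted p 1.1e-05). The Psmg4 arrays overlapped those of Neutrophil. Psmg2 was higher by 0.92 (adjusted p 0.00014) and Psmg3 did not pass.

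The regulators that dock on the core also split. Psme1 encodes PA28 alpha, which forms an activator that interferon gamma induces, and had 393 and 422 in Erythroblast, against 766 to 1988 (median 1347) in the other mature populations. It fell by 1.72 (SE 0.12, adjusted p 1.2e-10), with no overlap. Psme3 encodes PA28 gamma, the nuclear form, and had 1932 and 1579, against 125 to 248.9 (median 181), a rise of 3.21 ± 0.17 (adjusted p 4.5e-12), with 2.69 on its other probe set. Psmf1 encodes PI31, a protein that binds the core and inhibits it in the test tube; it had 2810.5 and 2349, against 114 to 271 (median 191), a rise of 3.77 ± 0.16 (adjusted p 9.6e-14). The groups did not overlap for either gene, and the 3 other probe sets of Psmf1 gave 2.86 to 3.20. Psme4, which encodes PA200, rose by 1.05 (adjusted p 1.6e-07), but 2 of its 4 other probe sets gave -0.01 and -0.19. Psmc3ip, a member by name only, rose by 1.88 (adjusted p 3.8e-07).

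**Figure D4:**
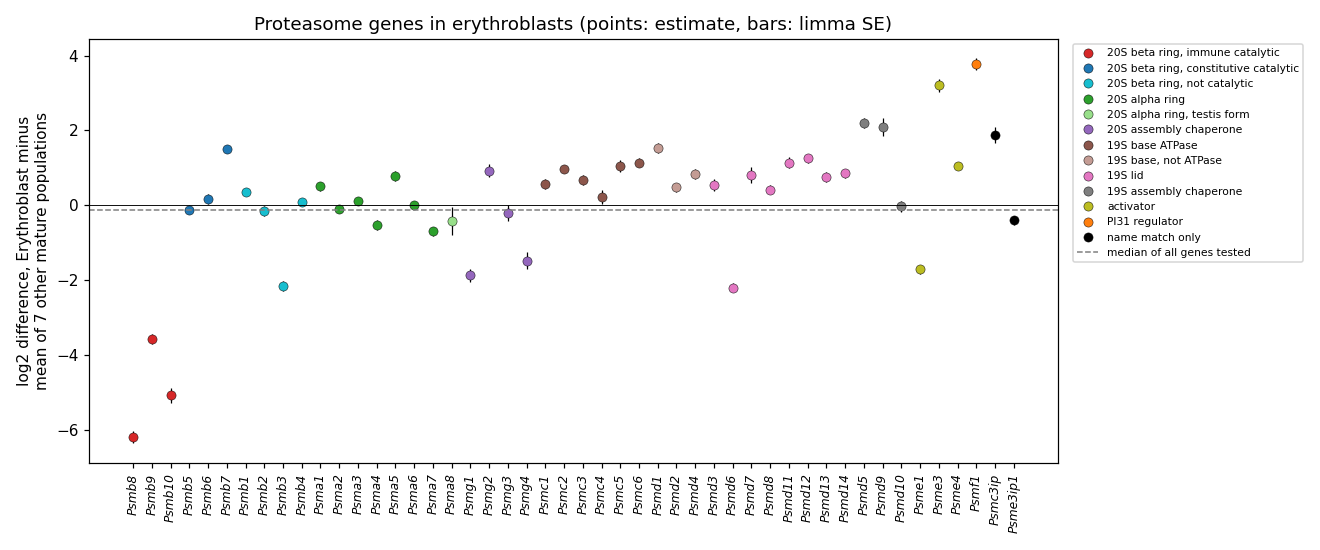
Log2 difference of Erythroblast minus the mean of the 7 other mature populations for each tested gene, with bars for the limma SE, points coloured by role, and a dashed line at the median of all genes tested (-0.13). The immune subunits lie between -6.20 and -3.58, and Psme3 and Psmf1 lie at 3.21 and 3.77.

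Partner genes of the proteasome were read from 3 lists. Of all genes tested 17.5% were called higher in Erythroblast and 28.4% lower, with a median of -0.13. Of 17 measured cofactors, 7 were called higher and 1 lower, with a median of 0.52. Fbxo7, which encodes a ubiquitin ligase subunit that binds PI31, averaged 1948 ± 333 in Erythroblast and from 84.8 in Neutrophil to 208 in NKT among the other mature populations (3.66 ± 0.19, adjusted p 2e-12). The deubiquitinase Usp14 differed by 2.08 and the proteasome phosphatase Ublcp1 by 2.03 (adjusted p 6.7e-10 and 2.6e-10), while Sem1, a small lid subunit named outside the rule, fell by 1.90 (adjusted p 7.7e-12). Of 15 genes of MHC class I antigen processing, 9 were called lower and 1 higher, with a median of -1.67: the tapasin relative Tapbpl (-3.50), the aminopeptidase Lap3 (-2.43) and Tap1 (-2.30) had the largest falls, and the chaperone Calr rose by 1.11. Of 20 genes of the interferon gamma pathway, 11 were called lower and 1 higher, with a median of -1.29, led by Ifit3 (-4.24), the transcription factor Irf1 (-4.02) and Irf8 (-3.73), with Irf7 higher by 1.94. The Erythroblast arrays also had the highest sum of 4 mitosis markers, 24205 to 32505, against 215 to 7369 in the other mature populations, and the part of cell division in these differences was not tested. Their Gapdh 3′ to 5′ ratios were 5.86 and 6.10, against 2.36 to 5.71 in the other mature populations, and their highest correlations with an array of another population were 0.669 and 0.708, against 0.859 to 0.948. The part of either in these differences was not tested.

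Lymphoid populations (B, NK, NKT, CD4T and CD8T) were set against the myeloid ones (Neutrophil and Monocyte). Proteasome genes differed little as a whole, with a median of 0.15 against 0.10 over all genes, and the differences that reached the minimum were in immune subunits, core chaperones and 1 lid subunit. Of 48 members, 5 were called higher, against 17.4% of all genes, and 0 lower, against 11.9% of all genes; by the adjusted p alone, 20 were higher, against 32.2% of all genes, and 5 lower, against 22.8% of all genes. Psmb10 was higher by 2.10 ± 0.16 (adjusted p 7.7e-10) and Psmb8 by 1.58 ± 0.13 (adjusted p 2.6e-09). Psmb9 was higher by 0.48 ± 0.10 and Psme1 by 0.76 ± 0.09 (adjusted p 0.00042 and 6.2e-07). Of the constitutive subunits, Psmb6 was higher by 0.35 ± 0.11 (adjusted p 0.0075), Psmb7 was lower by 0.43 on the log2 scale (adjusted p 0.00031), and Psmb5 differed by -0.07 ± 0.10 (adjusted p 0.56). Psme3 did not pass in limma (0.18 ± 0.14, adjusted p 0.27). With NK left out of the lymphoid side, a choice made after seeing the data, Psmb8 was at 1.65 and Psmb10 at 2.11. The Gapdh 3′ to 5′ ratio was 3.47 to 5.71 in the lymphoid arrays, against 2.36 to 3.34 in the myeloid ones, and its part in these differences was not tested.

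Of the chaperones of the core, Psmg2 and Psmg4 also separated these lineages. Psmg2 had 184 to 336 (median 227) in the 10 lymphoid arrays, against 41.6 and 25.1 in Neutrophil and 89.7 and 79.2 in Monocyte (2.00 ± 0.14, adjusted p 2.5e-10). Psmg4 had 101 to 258 (median 125), against 20.4 and 29.2 in Neutrophil and 49.4 and 81.0 in Monocyte (1.56 ± 0.18, adjusted p 3.4e-07). Psmg1 and Psmg3 were higher by 0.56 and 0.44 (adjusted p 0.001 and 0.032), below the minimum for a call, and their arrays overlapped between the lineages. Psmg2 and Psmg4 did not overlap between the lineages, and a second probe set of Psmg2 gave 1.96 and another 0.37. The lid subunit Psmd7 had 130.3 to 302 (median 186) in lymphoid arrays, against 75.7 and 45.1 in Neutrophil and 88.0 and 95.0 in Monocyte, with no overlap (1.29 ± 0.17, adjusted p 2e-06); its other probe sets gave 1.73 and -0.74. With Monocyte left out of the myeloid side, also a choice made after seeing the data, 8 members were called higher.

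Against 17.4% of all genes called higher in lymphoid cells and 11.9% lower, 5 of 15 MHC class I genes were higher and 1 was lower, with Tapbpl (1.82), Lap3 (1.58) and the peptide-trimming Erap1 (1.44) first and the aminopeptidase Npepps at -2.06. Among the interferon gamma genes 6 of 20 were higher and 1 lower, led by Gbp3 (2.66), the MHC class I regulator Nlrc5 (2.57) and Socs1 (2.05), with the receptor chain Ifngr2 at -1.39. None of the 17 cofactors was called higher, and Nfe2l2 (-1.54), the factor NRF2, and Sem1 (-1.19) were lower.

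Within the myeloid lineage, Neutrophil was lower than Monocyte in most proteasome genes by small amounts. The difference was below 0 for 43 of 48 members, with a median of -0.29 against -0.08 over all genes, but 0 were called higher, against 2.58% of all genes, and 3 lower, against 9.46% of all genes. By the adjusted p alone 11 members were lower, against 13.7% of all genes, and 0 higher, against 5.57% of all genes. The 3 called were Psmg2 (-1.22 ± 0.23, adjusted p 0.001), Psmg4 (-1.17 ± 0.30, adjusted p 0.0096) and, by name only, Psmc3ip (-1.92 ± 0.29, adjusted p 0.00013). The other probe sets of Psmg2 gave -0.94 and 0.41. The arrays of the 3 genes, given above for both chaperones, did not overlap; the call of Psmg4 was lost without Neutrophil replicate 1 (-0.97, adjusted p 0.10) or Monocyte replicate 2 (-0.85, adjusted p 0.14), and that of Psmg2 without Neutrophil replicate 2 (-0.91). Psmb10 was lower by 0.83 on the log2 scale (adjusted p 0.033) and reached -1.16 without Monocyte replicate 1. Psmb8 (-0.37, adjusted p 0.27), Psmb9 (0.35, adjusted p 0.18), Psmb5 (-0.26), Psmb6 (-0.33), Psmb7 (-0.29), Psme1 (0.11) and Psme3 (-0.09) did not pass. Of the 20 interferon gamma genes 1 was called higher in Neutrophil, against 2.58% of all genes, and 2 lower, against 9.46% of all genes. The Monocyte arrays carried neutrophil markers at the level given above. The mitosis markers summed to 1925 to 3272 in Neutrophil, against 6402 to 7369 in Monocyte, and the Gapdh 3′ to 5′ ratios were 2.48 and 2.36 in Neutrophil, against 3.34 and 3.10 in Monocyte. The part of these 3 measures in the differences was not tested.

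KSL was set against the 8 mature populations. Chaperones of core assembly were higher there, of the catalytic subunits Psmb8 and Psmb6 were higher by smaller amounts than the minimum for a call, and the other 4 did not pass. Of 48 members, 5 were called higher, against 15.8% of all genes, and 0 lower, against 6.87% of all genes, with a median of 0.25 against 0.06 over all genes; by the adjusted p alone 18 were higher, against 27% of all genes, and 7 lower, against 14.6% of all genes. Psmg1 had 512 and 602 in KSL, against 52.1 to 399.9 (median 231) in the mature arrays, without overlap (1.40 ± 0.16, adjusted p 1.5e-06). Psmg2 had 404 and 409, against 25.1 to 336 (median 204), also without overlap (1.25 ± 0.17, adjusted p 1.3e-05); its other probe sets gave 1.32 and -0.34. Psmg4 had 233 and 209.9, against 20.4 to 258 (median 107.5), where 1 B array lay above both (1.36 ± 0.23, adjusted p 8.2e-05), and Psmg3 was higher by 0.63 (adjusted p 0.022). High core chaperones were not particular to KSL. The difference of KSL minus LinNeg was -0.38 for Psmg1, -0.45 for Psmg2, -0.78 for Psmg3 and 0.19 for Psmg4.

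Psma8, the alpha subunit known from the testis, was dim throughout but had 46.7 and 41.5 in KSL and 44.3 and 36.6 in LinNeg, against 1.51 to 26.0 (median 8.34) in the mature arrays. It is 1 of the 5 called, but it passed the minimum for testing through KSL and LinNeg alone, so its difference had to be positive and no size is given. Psmc3ip was at 258 and 213 in KSL, against 18.1 to 264 (median 56.4), where 1 Erythroblast array lay above both (1.69 ± 0.22, adjusted p 5.4e-06). Psmb8 was higher by 0.84 ± 0.16 (adjusted p 0.00036), Psmb6 by 0.42 and Psme1 by 0.33 (adjusted p 0.016 and 0.028). Psmb9 (0.32, adjusted p 0.053), Psmb10 (0.21, adjusted p 0.43), Psmb5 (0.00), Psmb7 (0.09) and Psme3 (-0.40, adjusted p 0.071) did not pass. With Erythroblast left out of the mature side, chosen after seeing the data, Psmb8 was at 0.07 (adjusted p 0.78), Psmb9 at -0.13 and Psmb10 at -0.42, so that the higher Psmb8 in KSL rested on Erythroblast. Of the lists, beside 15.8% of all genes higher and 6.87% lower, 1 of 17 cofactors was called higher (Ecpas, 1.70) and 1 lower (Ublcp1, -2.24), and 3 of 15 MHC class I genes higher (Lap3, 2.00, Calr, 1.13, and Blmh, 1.05) and 1 lower (Tapbp, -1.02). Of the 20 interferon gamma genes 1 was called higher and 3 lower, beside the same shares.

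KSL was lower than LinNeg in most members. The difference was below 0 for 42 of 48, with a median of -0.39 against 0.01 over all genes, and below 0 for all 17 base and lid subunits and all 14 constitutive core subunits (under quantile normalization for all 17 and for 13 of 14). By the adjusted p alone, 12 members were lower, against 3.9% of all genes, and 1 higher, against 4.47% of all genes; with the minimum difference 1 was called lower, against 2.35% of all genes, and 0 higher, against 2.95% of all genes. The 1 higher by adjusted p was Psmb9, at 947 and 984 in KSL, against 730.2 and 549 in LinNeg (0.60 ± 0.17, adjusted p 0.034). Psmb8 (0.65, adjusted p 0.073) and Psmb10 (0.32, adjusted p 0.57) lay on the same side without passing, while Psmb7 was lower by 0.71 on the log2 scale (adjusted p 0.0047), at 493 and 436 against 799.6 and 731. Psmb5 (-0.47, adjusted p 0.095), Psmb6 (-0.34, adjusted p 0.29) and Psme1 (0.14) did not pass.

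The member called lower was Psmd9, at 134 and 106.97 in KSL, against 257 and 278 in LinNeg (-1.11 ± 0.32, adjusted p 0.036). Its call was lost without any 1 of these 4 arrays (adjusted p 0.073 to 0.26), and its other probe sets gave -0.49 and 0.35. Psme3 had 188 and 179, against 415 and 323 (-0.97 ± 0.23, adjusted p 0.012), Psmf1 193 and 187, against 326 and 319.9 (-0.74 ± 0.21, adjusted p 0.034), and Psmd5 445 and 442, against 681 and 648 (-0.58 ± 0.17, adjusted p 0.048). Psme3, Psmf1, Psmd5 and Psmb7 did not overlap between the groups. In Erythroblast against the other mature populations these 4 were called higher, as was Psmd9. By the adjusted p alone 5 of the 17 base and lid subunits were also lower in KSL. Psmc5 (KSL minus LinNeg -0.71) and Psmd12 (-0.56) were called higher in Erythroblast as well (1.05 and 1.25). Not every member lower in KSL was higher there: Psmb3 (KSL minus LinNeg -0.61) was called lower in Erythroblast (-2.16), and Psmb2 (-0.63) did not pass (-0.15). Erythroid markers summed to 417 to 690.3 in KSL, against 3609 to 3850 in LinNeg. Plasma cell markers (3 of 3 found) summed to 1496 to 1758 in KSL, against 4512 to 4679 in LinNeg, and the monocyte or macrophage markers to 324 to 706 in KSL, against 1278 to 1444 in LinNeg. The part of these markers in the differences was not tested. Among the cofactors, Ublcp1 was lower in KSL as well (-2.06 ± 0.19, adjusted p 2.4e-06), and none of the MHC class I genes was called. Of the 20 interferon gamma genes 4 were called higher in KSL, against 2.95% of all genes, and 1 lower, against 2.35% of all genes.

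B and NK were each set against the T cells, and few members reached the minimum difference. In B against the T cells (CD4T and CD8T), 1 member was called higher, against 5.82% of all genes, and 0 lower, against 7.01% of all genes. The 1 was Psmc3ip, at 105 and 131 in B, against 24.1 and 29.4 in CD4T and 53.2 and 81.5 in CD8T (1.33 ± 0.25, adjusted p 0.00059), so no proteasome subunit was called; without B replicate 2 the count was 2. By the adjusted p alone 2 members were higher, against 8.63% of all genes, and 2 lower, against 10.6% of all genes: Psme4, beside Psmc3ip, was higher in B by 0.74 (adjusted p 0.00033), and Psmg1 (-0.69, adjusted p 0.013) and Psme1 (-0.52, adjusted p 0.0082) were lower. Psmb8 (-0.43, adjusted p 0.13), Psmb9 (-0.38, adjusted p 0.08) and Psmb10 (-0.05, adjusted p 0.93) did not pass, nor did Psmb5 (0.13), Psmb6 (0.18), Psmb7 (0.32) or Psme3 (0.22). Of the 20 interferon gamma genes 11 were lower in B, against the 7.01% of all genes, led by Iigp1 (-2.76), Irgm2 (-1.99) and Socs1 (-1.88), and Irf8 (4.56) and Ciita (2.29) were higher.

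In NK against the same T cells, 0 members were called higher, against 8.82% of all genes, and 0 lower, against 5.5% of all genes, in limma. By the adjusted p alone 9 were lower, against 11.8% of all genes, and 1 was higher, against 12.2% of all genes. Psmb1, a core subunit without an active site, had 771 and 762 in NK, against 1162 and 1178 in CD4T and 1371 and 1301 in CD8T, without overlap (-0.70 ± 0.12, adjusted p 0.00014). Psmg1 was lower by 0.68 on the log2 scale (adjusted p 0.012), Psme1 by 0.50 (adjusted p 0.0093), and Psme4 was higher by 0.39 (adjusted p 0.039). Psmb8 (-0.42, adjusted p 0.12), Psmb9 (-0.39, adjusted p 0.066), Psmb10 (-0.01), Psmb5 (0.14), Psmb6 (-0.08), Psmb7 (0.19) and Psme3 (0.08) did not pass. Of the 20 interferon gamma genes 3 were called higher in NK, against 8.82% of all genes, and 2 lower, against 5.5% of all genes. The NK arrays carried the monocyte or macrophage and the neutrophil markers given above, the first at 139 to 174 in the T cells, and the part of these markers in the NK values was not tested.

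**Figure D5:**
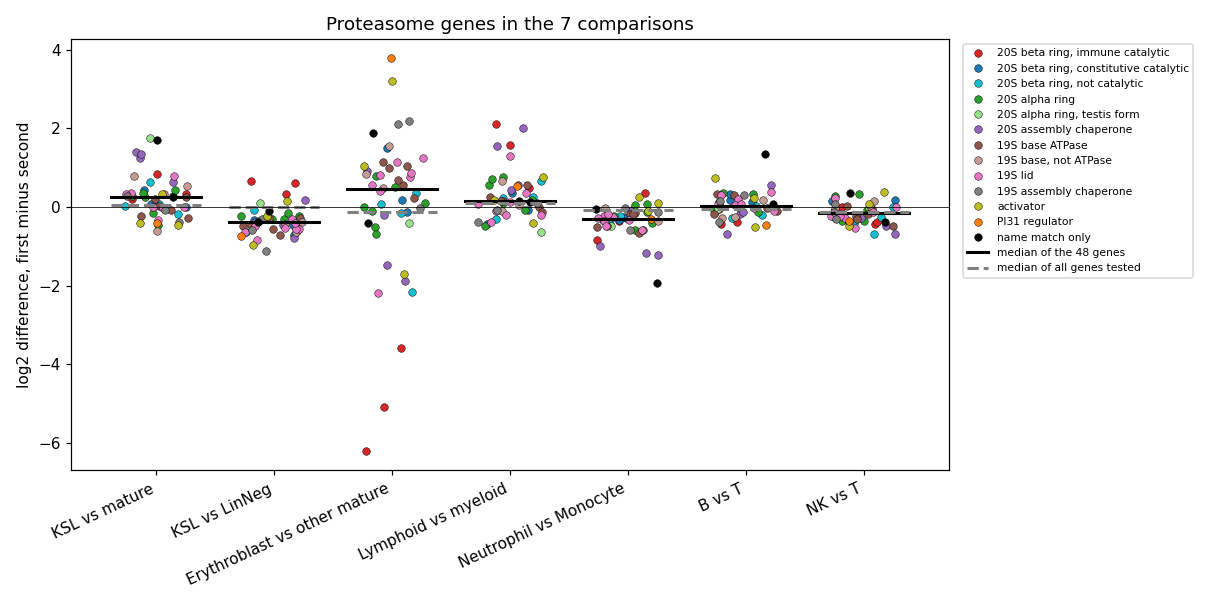
Log2 difference of the first group minus the second for the 48 tested genes in the 7 comparisons, coloured by role, with a solid bar at their median and a dashed bar at the median of all genes tested. The members spread widest in Erythroblast, from -6.20 to 3.77, and their median lies below that of all genes in KSL minus LinNeg (-0.39 against 0.01) and in Neutrophil minus Monocyte (-0.29 against -0.08).

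The comparisons of Erythroblast, KSL, the lymphoid and the myeloid cells share populations, so their values are not independent of each other. Each member's profile over the 10 populations was also set against a mean profile of the other members. That mean drew on 43 tested genes, chaperones and activators among them, without Psmb8, Psmb9, Psmb10, Psmc3ip and Psme3ip1. The highest Pearson r were 0.97 for the lid subunit Psmd3 and 0.93 for the ATPase Psmc3, and Psmb6 and Psmd12 had 0.92 and 0.91. Of the 9 members below 0, Psmb8, Psmb9 and Psmb10 had -0.29, -0.46 and -0.25, Psma2, Psmb3 and Psmd6 had -0.41, -0.29 and -0.15, and Psme1, Psmd10 and Psme4 had -0.18, -0.17 and -0.04. These are descriptions over 10 points, and the mean profile itself was highest in LinNeg (0.57 above its average on the log2 scale) and lowest in Neutrophil (-0.46).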

How the data were processed

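Gene expression was measured on 20 one-colour Mouse Genome 430 2.0 arrays, 2 for each of 10 sorted populations. Per the labels' protocols, RNA of 3000 cells was extracted with ISOGEN and amplified in 2 cycles before hybridisation, which shortens transcripts and can lower probe sets far from the 3′ end. The deposited intensity values are on a linear scale, and the values show that the authors scaled each array to a trimmed mean of 100; for the software and background correction, the sources used here give no name. No reads or depth exist for arrays, and 2 arrays per population limit the precision.

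Values were used as log2(intensity + 6.75), the added value being the 25th percentile of all values. Each gene was read by its brightest probe set with 1 platform symbol. The 14044 of 18193 genes whose population mean passed 4.89 on the log2 scale in at least 1 population were fitted in limma 3.58.1 (R 4.3.3), with 1 mean per population, 10 residual degrees of freedom and a mean-variance trend. Contrasts weight populations equally, and p-values were adjusted by Benjamini-Hochberg over all genes tested. Calls needed both an adjusted p below 0.05 and a log2 difference of 1 or more. The fit was tested on simulated data.

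Any member could be named. Psmb5 to Psmb10, Psme1 and Psme3 were given in each comparison, then up to 4 called members per direction. Up to 3 called genes per list and direction were named in some comparisons, and in others lists were only counted or left out. The 5 most similar profiles were named as well. Further members were named after their values were seen. Members and lists (24 cofactors, 16 MHC class I and 22 interferon gamma genes) were chosen with earlier results of these data known. Alternatives were other pseudocounts, filters, normalizations, probe set rules and thresholds, leaving out each array, and a replicate block.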

Additional observations from a re-analysis of the deposited data

How the results depend on the processing

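The calls of the immune subunits in Erythroblast held under each alternative run. The Erythroblast index was -5.13 and -4.12 with the pseudocount at the 5th and 50th percentile, -4.41 under quantile normalization and -4.33 with the mean of all probe sets. Members called lower in KSL against LinNeg, 1 in the reported fit, numbered 0 with the 5th percentile, the mean of all probe sets or no variance trend, and 2 under quantile normalization or array median centring. Members called lower in Neutrophil against Monocyte, 3 in the reported fit, numbered 1 with the 50th percentile or the mean of all probe sets, and the mean of all probe sets left 3 higher in KSL against mature populations. Quantile normalization gave Psmb6 2 called pairs. With no minimum difference the counts were 26 higher in Erythroblast, 20 higher and 5 lower in lymphoid cells, 11 lower in Neutrophil, 18 higher and 7 lower in KSL against mature populations, 1 higher and 12 lower in KSL against LinNeg, 2 and 2 in B, and 1 and 9 in NK; Psmb5, Psmb6, Psmb7 and Psmb9 then had 5, 15, 27 and 24 pairs. Testing against a difference of 1 (treat) left 7 higher in Erythroblast, 1 higher in KSL against mature populations, 0 lower in Neutrophil, 0 lower in KSL against LinNeg and 0 higher in B, with 0, 5, 12 and 15 pairs for Psmb6, Psmb7, Psmb8 and Psmb10. With Monocyte left out, chosen after seeing the data, 8 members were higher in lymphoid cells. The cause of these shifts was not tested.

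Signs turned for differences near 0. Under quantile normalization these were Psmb6 in Erythroblast (-0.046), Psmb5 in lymphoid cells (0.081), and Psme1 (-0.015) and Psme3 (0.0091) in Neutrophil. Under array median centring they were Psmb10 in B (0.042) and in NK (0.079) and Psmb6 in NK (0.0072), and with the mean of all probe sets Psme3 in lymphoid cells (-0.094) and in B (-0.040). Leaving Monocyte out turned Psmb5 in lymphoid cells (0.056), and leaving Erythroblast out turned Psmb10 (-0.42), Psmb9 (-0.13) and Psmb5 (-0.011) in KSL against mature populations. Quantile normalization and median centring moved the median of all genes in Erythroblast by 0.16 and 0.12.

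Leaving out each array in turn gave Psmb5 -0.050 to 0.058 and Psmb7 -0.0012 to 0.17 in KSL against mature populations, Psmb6 -0.025 to 0.38 and Psmb10 -0.19 to 0.090 in B, and Psmb10 -0.14 to 0.11, Psme3 -0.071 to 0.23 and Psmb6 -0.23 to 0.067 in NK. It gave Psmb6 -0.053 to 0.41 in Erythroblast, Psmb5 -0.16 to 0.017 in lymphoid cells, and Psme1 -0.11 to 0.33 and Psme3 -0.32 to 0.13 in Neutrophil. Counts ran from 1 to 2 higher in B, 0 to 1 lower in KSL against LinNeg (0 without KSL replicate 2 or LinNeg replicate 1) and 1 to 2 pairs for Psmb6 (2 without LinNeg replicate 2), and the Monocyte index from -0.48 to -0.12. A lone array was assumed to vary like the others.

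Same-numbered arrays did not deviate together (45 pairs of populations, r from -0.09 to 0.21, median 0.0064, 1 over 0.1). The labels do not say whether same-numbered arrays shared animals, and these correlations cannot decide it. No pairing entered the reported fit. With the replicate block 12 members were higher and 8 lower in Erythroblast and 46 passed the F test. The other counts of called members were those reported.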
